A study of Mus musculus with 8 samples.

Results

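Proteasome subunit genes were described across 8 arrays of mouse pre-iPSCs, cells stopped part of the way from a somatic cell to a pluripotent stem cell. The members were all genes whose array symbol begins with Psma, Psmb, Psmc, Psmd, Psme, Psmf or Psmg followed by a digit: 49 of the 19057 symbols on the array, read by 86 of its 45281 probes. For each gene the probe with the highest mean over the 8 arrays was used, and the other probes of 28 members served as a check. The rule used no difference between groups. It also picked up Psmc3ip, a meiotic recombination factor, and Psme3ip1, a partner of an activator, which are not subunits.

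The cells were female, of strain 129/MF1, derived from neural stem cells, and carried an Oct4 reporter that drives GFP and puromycin resistance. All of them grew in serum with LIF on gelatin and had been stably transfected with a pair of PiggyBac transposon vectors, each driven by the CAG promoter, along with the transposase, then selected with hygromycin, blasticidin or both. The 4 groups of 2 arrays each received both vectors empty (EV), Nanog with an empty vector (Nanog), Sin3a with an empty vector (Sin3a), or Nanog with Sin3a (Nanog+Sin3a), and RNA was taken at day 0 of reprogramming. Nanog is a pluripotency transcription factor and Sin3a the scaffold of a histone deacetylase co-repressor, and the series asks whether they work together. The labels do not say whether the 2 arrays of a group came from separate cultures or transfections, so every p-value measures only the spread between these arrays. The transgenes read as labelled: Nanog was at the floor in the EV and Sin3a arrays and between 8.16 and 8.92 (log2) in the 4 arrays with the Nanog vector, and Sin3a rose by 1.98 (log2) in Sin3a vs EV (limma, adjusted p = 1.06e-07).

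The proteasome is the cell's main machine for degrading proteins marked with ubiquitin. Its barrel, the 20S core, is built of rings of alpha subunits that gate the entrance and rings of beta subunits, some of which cut peptide bonds; a 19S cap recognises, unfolds and feeds in the substrate, and other activators can sit on the same end. Interferon signalling is known to exchange the cutting subunits for the immunoproteasome forms Psmb8, Psmb9 and Psmb10 and to raise the PA28 activator genes Psme1 and Psme2, which favours peptides for MHC class I; pluripotent stem cells are known for high proteasome activity.

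Intensities are the authors' deposited background-subtracted values, taken to log2 after setting values under 16 to 16 (a floor of 4 on the log2 scale), and levels are not compared between probes. Of the 49 members, 42 were above the floor on at least 2 of 7 arrays and were tested there. Psma1, Psma3, Psmb9, Psmb11 and Psmg4 were at the floor on all 8 arrays; Psmd3 was above it on 1 EV array and Psma8, a testis form of a core subunit, on the second Sin3a array alone. Low signal from 1 probe does not show that a gene is silent, since core subunits such as Psma1 and Psma3 are needed in every cell. No probe read the inhibitor Psmf1. The second Sin3a array stood apart: 80.1% of 7812 probes of middle intensity differed by more than 1 (log2) from the first Sin3a array, against 0.205% to 2.57% within the other pairs, and 0% of 2670 bright probes did. Between the Sin3a arrays 5 members differed by more than 1 (Psmc6, Psmd2, Psmd5, Psmd9 and Psme2); no member did within another pair. That array was therefore left out of the fits of Nanog vs EV, Nanog+Sin3a vs EV and Nanog+Sin3a vs Nanog, and comparisons with the Sin3a group used the 28 bright members (mean log2 above 9) on 8 arrays.

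**Figure D1:**
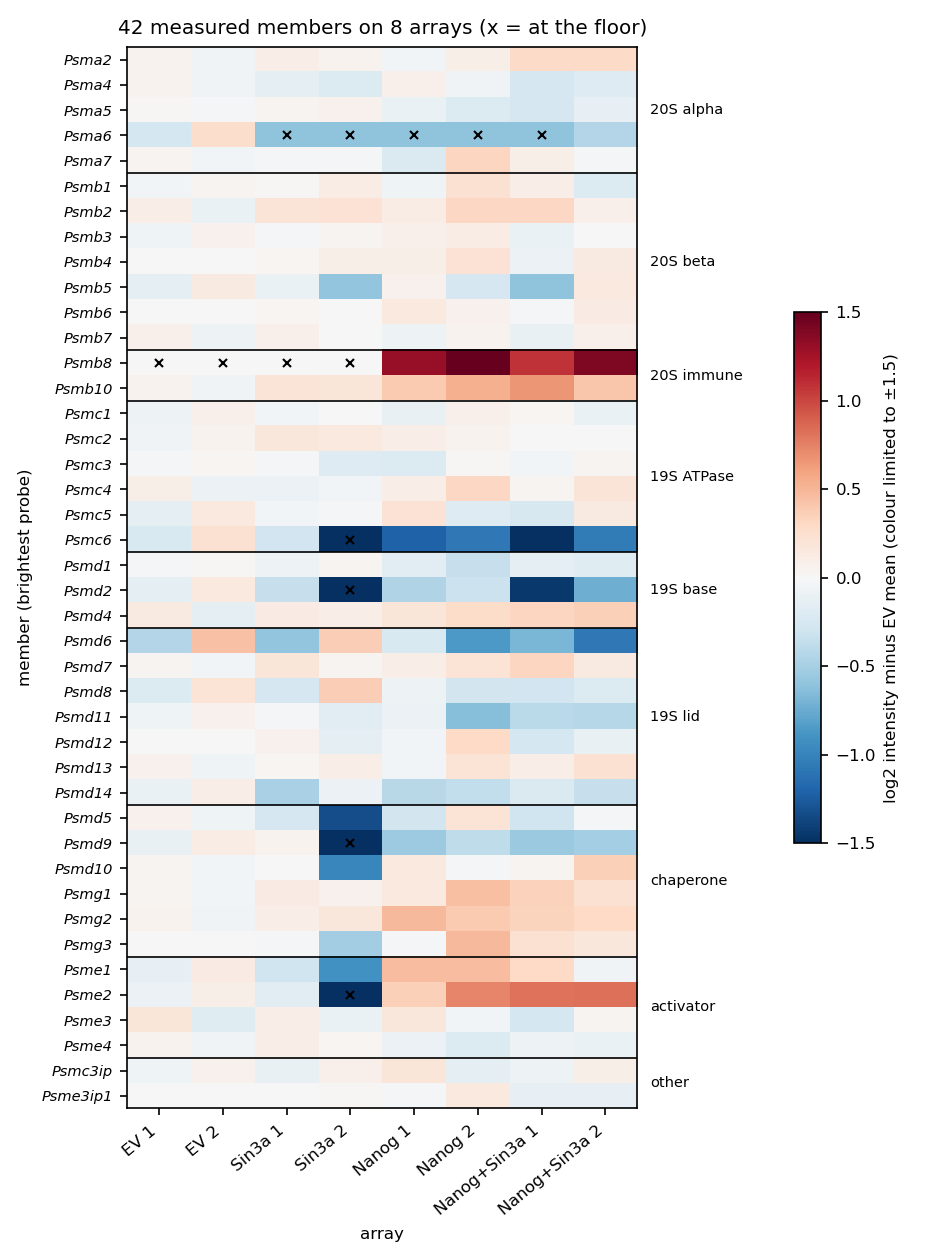
Log2 intensity of the 42 measured members (rows, brightest probe, grouped by role) on each of the 8 arrays (columns), as the difference from the mean of the 2 EV arrays; red is higher, blue lower, and a cross marks a value at the floor. Most rows stay pale; Psmb8, Psmb10 and Psme2 are red in the 4 arrays with Nanog, Psmc6 is blue there, and the second Sin3a array departs from the first in the rows of weak probes.

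Psmb10, an immunoproteasome gene, and Psme2, a PA28 gene, rose in Nanog+Sin3a vs EV, and Psmc6, a gene of the cap, fell. In Nanog vs EV 1 of 42 tested members passed (2.38%, against 2.69% of all 12886 features tested; limma, adjusted p under 0.05), and in Nanog+Sin3a vs EV 4 of 42 did (9.52%, against 7.45% of all features). Psmb8, another immunoproteasome gene, is in both counts; it entered the test only through the arrays with Nanog, where it is high, so its calls are no support and only its intensities are described. In the 8-array fit of bright features, an alternative to these fits, 2 members passed in Nanog vs EV (Psmb10 and Psmg2, both higher; against 9.65% of bright features) and 3 in Nanog+Sin3a vs EV (Psmb10, Psma2 and Psmd4, all higher; against 17%). By direction, 1.44% of all features rose and 1.25% fell in Nanog vs EV, and 3.78% rose and 3.67% fell in Nanog+Sin3a vs EV. The shares of members in total lay near the background. Without adjustment, p was under 0.05 for 11 and 12 members in the 2 comparisons, against 19.5% and 26% of all features. Both comparisons share the EV arrays, so they are not independent of each other.

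Psmb8 encodes the immunoproteasome form of the chymotrypsin-like subunit. Its intensity was 39.6 and 45.9 in the Nanog arrays, 33.8 and 42.1 in the Nanog+Sin3a arrays, 3.6 and 5 in the EV arrays, and 14.5 and -10.6 in the Sin3a arrays. All 4 arrays with Nanog were above the floor of 16 and all 4 without it were under it, so the groups did not overlap. Against the floor, Psmb8 was at least 2.66-fold higher with Nanog and at least 2.36-fold higher with Nanog+Sin3a. No p is given for these, since it was the only member that entered the test through the arrays with Nanog alone and its EV values were all set to the floor. The signal was weak, and the other Psmb8 probe did not show the pattern: it read 0.6 and 29.3 in the Nanog arrays, 2.2 and -14.2 in the Nanog+Sin3a arrays, and 11.5 and 10.2 in the EV arrays. With a floor of 32 the brightest probe's log2 differences shrank to 0.41 and 0.24.

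Psmb10 is the immunoproteasome form of the trypsin-like subunit, and its probe was bright. Its log2 intensity was 10.17 and 10.07 in the EV arrays, 10.32 and 10.30 in the Sin3a arrays, 10.52 and 10.66 in the Nanog arrays and 10.79 and 10.54 in the Nanog+Sin3a arrays. Every array with Nanog exceeded every array without it. The difference from EV was 0.54 with Nanog+Sin3a (SE 0.11, 1.46-fold, limma adjusted p = 0.0391) and 0.47 with Nanog (SE 0.11, adjusted p = 0.0908), and it passed in the latter when only bright features were fitted on 8 arrays (adjusted p = 0.0163). The second Psmb10 probe gave 0.48 and 0.42 in the same order.

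Psmb9, the caspase-like immunoproteasome form, was at the floor throughout, between -13.5 and 14 in intensity. Its neighbours differ: on chromosome 17 the RefSeq table places Psmb9, Tap1, Psmb8 and Tap2 next to each other, and 2 of these 4 genes, Psmb8 and Tap2, were above the floor in all 4 arrays with Nanog. Tap2 was also above it in the first EV array, at 18.8, and Tap1 only in the Nanog+Sin3a arrays, at 30.1 and 16.6. All these signals were weak.

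The PA28 genes Psme1 and Psme2 encode the subunits of a ring that opens the core. Psme2 read 6.65 and 6.83 (log2) in the EV arrays, 7.10 and 7.47 in the Nanog arrays, 7.56 and 7.57 in the Nanog+Sin3a arrays, and 6.58 in the first Sin3a array, and was at the floor in the second, the array that stood apart. The arrays with Nanog lay above all those without. Psme2 rose in Nanog+Sin3a vs EV by 0.82 (SE 0.16, 1.77-fold, limma adjusted p = 0.0371), and the difference in Nanog vs EV was 0.55 (SE 0.16, adjusted p = 0.146). Psme1 read 8.54 and 8.79 in the EV arrays, 9.12 and 9.13 in the Nanog arrays, 8.96 and 8.61 in the Nanog+Sin3a arrays and 8.36 and 7.76 in the Sin3a arrays. The Nanog arrays were above the EV arrays, while those with Nanog+Sin3a overlapped them. Neither Psme1 difference passed: 0.46 (SE 0.14, adjusted p = 0.155) with Nanog and 0.12 (SE 0.14, adjusted p = 0.626) with Nanog+Sin3a; its second probe gave 0.63 and 0.40.

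The other activators did not pass. Psme3, the nuclear PA28 relative, read 9.14 and 8.78 in the EV arrays, 9.13 and 8.92 in the Nanog arrays and 8.70 and 9.0 in the Nanog+Sin3a arrays, and these ranges overlapped. Psme4, the PA200 activator, differed by -0.15 and -0.09.

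**Figure D2:**
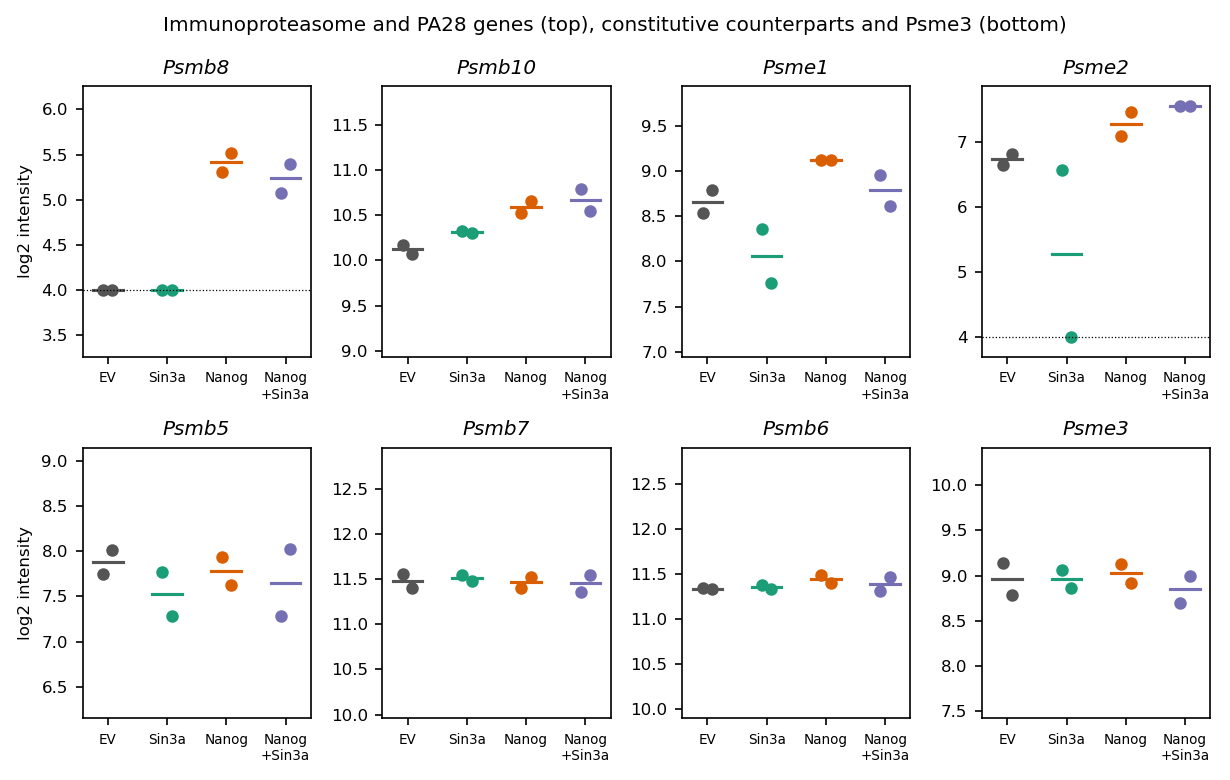
Log2 intensity of each of the 8 arrays (dots; bars are group means) for Psmb8, Psmb10, Psme1 and Psme2 (top) and for Psmb5, Psmb7, Psmb6 and Psme3 (bottom), by group; the dotted line is the floor and every panel spans at least 3 log2 units. In the top row the arrays with Nanog sit highest except for Psme1, where 1 Nanog+Sin3a array, at 8.61, lies among the EV arrays; in the bottom row the groups overlap or lie within 0.25 of EV.

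The constitutive cutting subunits, which Psmb8, Psmb9 and Psmb10 replace, did not show this pattern. Psmb5, the chymotrypsin-like subunit, read 7.75 and 8.01 in the EV arrays, 7.94 and 7.63 in the Nanog arrays and 7.28 and 8.02 in the Nanog+Sin3a arrays. Psmb6, the caspase-like subunit, differed from EV by 0.11 with Nanog and 0.05 with Nanog+Sin3a, and Psmb7, the trypsin-like subunit, by -0.01 and -0.02. None of the 3 passed. The 95% interval of the Nanog difference ran from -0.26 to 0.24 for Psmb7 and from -0.11 to 0.32 for Psmb6; that of Psmb5 was wide, from -0.71 to 0.52. A p that misses the threshold does not show equality, and these intervals bound only what the brightest probe of each gene read. The second Psmb6 probe gave 0.22 with Nanog and 0.06 with Nanog+Sin3a. The further Psmb7 probes gave 0.02, -0.09 and 0.22 with Nanog and 0.06, -0.04 and -0.48 with Nanog+Sin3a.

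The promoters of Psmb8, Psmb10 and Psme2, which read higher in the arrays with Nanog, and of Psmc6, which read lower there, are shown for comparison; no region of the genome was assayed here. Each is the 250 bases before the RefSeq start in build GRCm38.p6, 5′ to 3′ on the gene's strand, in lower case: Psmb8 at chr17:34197945-34198194 (plus strand), Psmb10 at chr8:105938393-105938642 (minus), Psme2 at chr14:55591022-55591271 (minus, 1 of 2 annotated starts) and Psmc6 at chr14:45329574-45329823 (plus). Capitals mark the only match found in them to the motifs searched.
Psmb8: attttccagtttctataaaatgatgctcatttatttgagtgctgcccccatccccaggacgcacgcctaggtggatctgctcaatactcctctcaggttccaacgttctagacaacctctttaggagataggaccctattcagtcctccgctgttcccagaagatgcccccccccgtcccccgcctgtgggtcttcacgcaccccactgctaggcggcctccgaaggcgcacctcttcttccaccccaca
Psmb10: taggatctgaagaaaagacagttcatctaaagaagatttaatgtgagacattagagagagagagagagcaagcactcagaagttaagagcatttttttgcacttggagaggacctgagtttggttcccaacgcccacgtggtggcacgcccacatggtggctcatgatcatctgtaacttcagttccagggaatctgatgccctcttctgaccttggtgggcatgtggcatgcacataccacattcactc
Psme2: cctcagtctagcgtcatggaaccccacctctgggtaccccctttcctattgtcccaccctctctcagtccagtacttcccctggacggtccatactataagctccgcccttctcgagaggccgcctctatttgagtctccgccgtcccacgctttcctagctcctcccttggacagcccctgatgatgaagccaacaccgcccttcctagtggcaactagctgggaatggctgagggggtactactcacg
Psmc6: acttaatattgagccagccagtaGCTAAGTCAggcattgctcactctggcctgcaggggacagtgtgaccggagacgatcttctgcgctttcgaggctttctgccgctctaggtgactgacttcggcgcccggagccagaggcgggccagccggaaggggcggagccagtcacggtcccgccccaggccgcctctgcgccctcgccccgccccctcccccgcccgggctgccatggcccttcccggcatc

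Of the 49 members, 41 had such a window (45 windows with alternative starts). The core of the antioxidant response element, TGACNNNGC on either strand, which is bound by the Nrf factors known to drive proteasome genes, was in 5 of 45 windows (11.1%, against 10.2% of all 32851 windows): those of Psmb5, Psmb6, Psmc6, Psmd12 and Psmd9. In Psmc6 it lay 227 to 219 bases before the start on the minus strand. The CCAAT box (CCAAT, either strand) was in 16 of 45 (35.6%, against 33.8%). A core of the interferon-stimulated element, GAAANNGAAA on either strand, was added after the values were seen; it was in 3 of 45 (6.67%, against 2.98%), those of Psmb3, Psmd4 and Psmd9. None of the 3 motifs was in the windows of Psmb8, Psmb10, Psme1 or Psme2, which says only that these letters are not there.

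The rest of the 20S core stayed close to EV. Of the 15 alpha and constitutive beta genes, 12 were tested and none passed in the 7-array fits or, among bright members, in the comparisons with the Sin3a group (limma). In the 8-array fit of bright features Psma2 passed in Nanog+Sin3a vs EV (adjusted p = 0.0202). Unadjusted, 1 of the 12 passed in Nanog vs EV (Psma6) and 2 in Nanog+Sin3a vs EV (Psma2 and Psma4), against 19.5% and 26% of all features. Psma2, an alpha ring subunit, read 12.73 and 12.61 in the EV arrays, 12.63 and 12.76 in the Nanog arrays and 12.95 and 12.96 in the Nanog+Sin3a arrays, which were the highest. Its difference was 0.29 (SE 0.09, adjusted p = 0.108 in the 7-array fit). Psma6, also of the alpha ring, was above the floor on 3 of 8 arrays, both EV arrays among them (4.34 and 4.87), so its difference of -0.61 with Nanog rests on values at the edge of detection. Psma6 met the filter only with the EV arrays, where it is highest, so its unadjusted p is no support. Psma5 showed how far probes of 1 gene could part. The brightest Psma5 probe, at 12.68 and 12.64 in the EV arrays, differed by -0.15 with Nanog and -0.19 with Nanog+Sin3a. The dimmer one differed by -1.78 and -2.05: its intensity was 168.6 and 185.6 in the EV arrays, 169.4 in the first Sin3a array, and 35.9 to 54.4 in all 4 arrays with Nanog. Fitted as a separate feature, that Psma5 probe passed in both comparisons. Which part or isoform of the transcript each probe reads was not analysed here.

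The 19S cap held the only member that fell. Psmc6, an ATPase of the unfolding ring, read 5.53 and 5.98 in the EV arrays, 4.55 and 4.68 in the Nanog arrays, 4.07 and 4.71 in the Nanog+Sin3a arrays and 5.48 in the first Sin3a array, and was at the floor in the second. Without the array that stood apart, every array with Nanog was below every array without it. Psmc6 fell by 1.37 in Nanog+Sin3a vs EV (SE 0.28, limma adjusted p = 0.0390), and the Nanog difference was -1.14 (SE 0.28, adjusted p = 0.0968). The signal was dim, and the other Psmc6 probe was at the floor on all arrays. The other 5 ATPases, Psmc1 to Psmc5, were bright and differed from EV by between -0.09 and 0.20 with Nanog.

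The base scaffold genes are Psmd1 and Psmd2, and Psmd4 is a ubiquitin receptor. Psmd2 read 5.95 and 6.26 in the EV arrays, 5.65 and 5.79 in the Nanog arrays and 4.66 and 5.37 in the Nanog+Sin3a arrays, which were the lowest of the 3 groups. Its difference of -1.09 in Nanog+Sin3a vs EV (SE 0.27, adjusted p = 0.0636) did not pass, and its second, also dim, probe gave -1.19. Psmd1 differed by -0.26 and -0.16, and Psmd4 by 0.23 and 0.34 (for the latter, adjusted p = 0.110, and 0.0235 in the 8-array fit of bright features).

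In the lid, which removes the ubiquitin chain before the substrate enters, 7 of 8 genes were tested and none passed in the 7-array fits. Psmd14, the deubiquitinase that cuts the chain off, read 9.55 and 9.76 in the EV arrays, 9.24 and 9.29 in the Nanog arrays, 9.44 and 9.31 in the Nanog+Sin3a arrays and 9.17 and 9.57 in the Sin3a arrays. Its difference was -0.39 (SE 0.10, adjusted p = 0.115) with Nanog and -0.28 (SE 0.10, adjusted p = 0.156) with Nanog+Sin3a; the Sin3a arrays spanned that range. Psmd6, the lid gene with the largest difference, was at -0.88 in Nanog+Sin3a vs EV (SE 0.35, adjusted p = 0.176), with EV arrays at 6.61 and 7.49. For Psmd12 the bright probe gave -0.19 and a dimmer one -1.07 in the same comparison.

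Assembly chaperones guide the core and the base together without staying in the finished complex. Of 7 genes 6 were tested and none passed in the 7-array fits. Psmg2, which pairs with Psmg1 to start the alpha ring, read 9.39 and 9.28 in the EV arrays, 9.43 and 9.50 in the Sin3a arrays, 9.82 and 9.72 in the Nanog arrays and 9.66 and 9.63 in the Nanog+Sin3a arrays. Its groups with and without Nanog did not overlap, and the difference in Nanog vs EV was 0.44 (SE 0.09, adjusted p = 0.0588, and 0.0288 in the 8-array fit of bright features). Its other probes gave 0.17 and -0.47, so they did not share a direction. Psmg1 differed by 0.30 and 0.29. Psmd9, a chaperone of the base, differed by -0.46 and -0.54 (adjusted p = 0.210 and 0.109), and its second probe by 0.26 and -0.85.

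**Figure D3:**
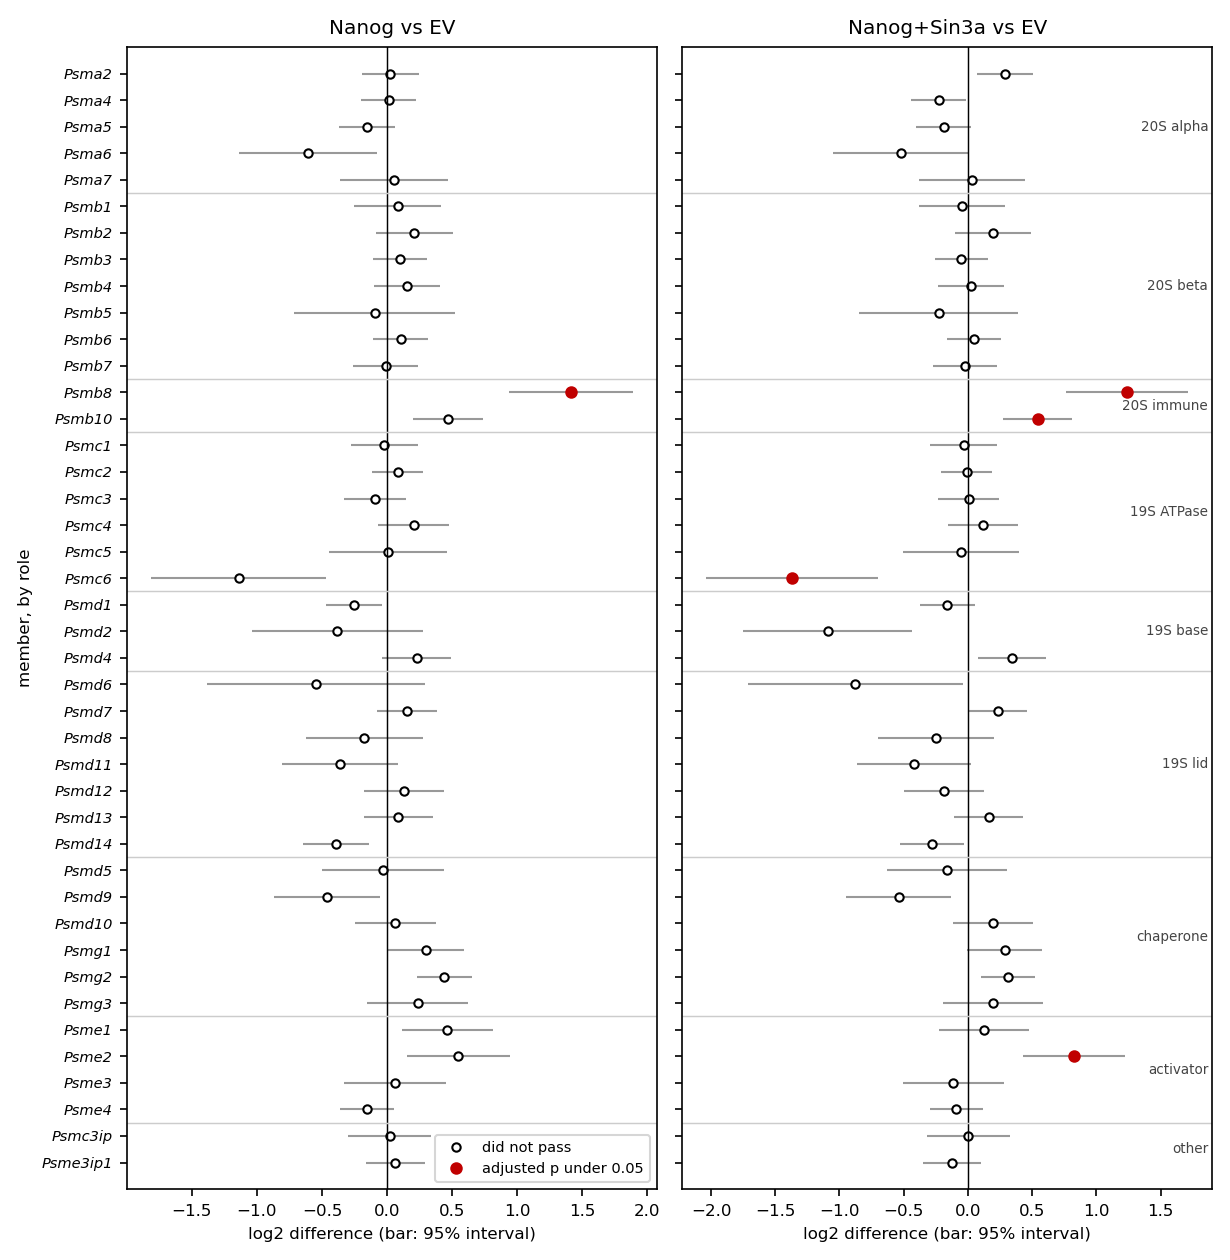
Log2 difference from EV with its 95% interval for each of the 42 tested members, by role, for Nanog (left) and Nanog+Sin3a (right); filled red points passed at adjusted p under 0.05. Psmb8 alone is filled on the left, on EV values that were at the floor; Psmb8, Psmb10, Psme2 and Psmc6 are filled on the right, and 28 members lie within 0.25 of EV in each panel.

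Over the 42 tested members the median difference was 0.06 in Nanog vs EV and -0.03 in Nanog+Sin3a vs EV, against 0.00 and 0.01 over all features. Within 0.25 of EV lay 28 members in each comparison, against 58.3% and 51.1% of all features. By probe brightness the signs fell as follows. Of the 29 members with a mean log2 above 9, 22 were higher and 7 lower in Nanog vs EV; of the 9 between 6 and 9, 3 were higher and 6 lower; of the 4 dimmest, 1 was higher and 3 lower. The bright class did not lean the same way elsewhere: 16 were higher and 13 lower in Nanog+Sin3a vs EV, and 10 higher and 19 lower in Nanog+Sin3a vs Nanog. Among all features, 49.2% to 50.4% were lower in these intensity classes in Nanog vs EV. Comparing the 4 arrays with Nanog with the 3 without it, 6 members did not overlap and were higher (14.3%, against 11.9% of all features): Psmb8, Psmb10, Psme2, Psmd4, Psmg1 and Psmg2. Psmb8 entered the test only through the arrays with Nanog, so its place in this count was set by the filter and is no support. Another 6 were lower (14.3%, against 12.5%): Psma5, Psmc6, Psmd1, Psmd9, Psmd11 and Psme4.

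Where a gene had further probes, they were set against the brightest. Above the floor were 29 such probes of 22 genes. In Nanog vs EV 22 of them were within 0.5 (log2) of the brightest probe's difference and 17 had its sign; in Nanog+Sin3a vs EV the counts were 23 and 21. Differences of more than 1 were seen for Psma5 and for a dim probe of Psmb2 in both comparisons, for Psmb8 in Nanog+Sin3a vs EV and for Psmd9 in Nanog+Sin3a vs Nanog. In Psmb2, a constitutive beta subunit, the bright probes gave 0.21 and 0.36 with Nanog, and the dim one -0.91.

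**Figure D4:**
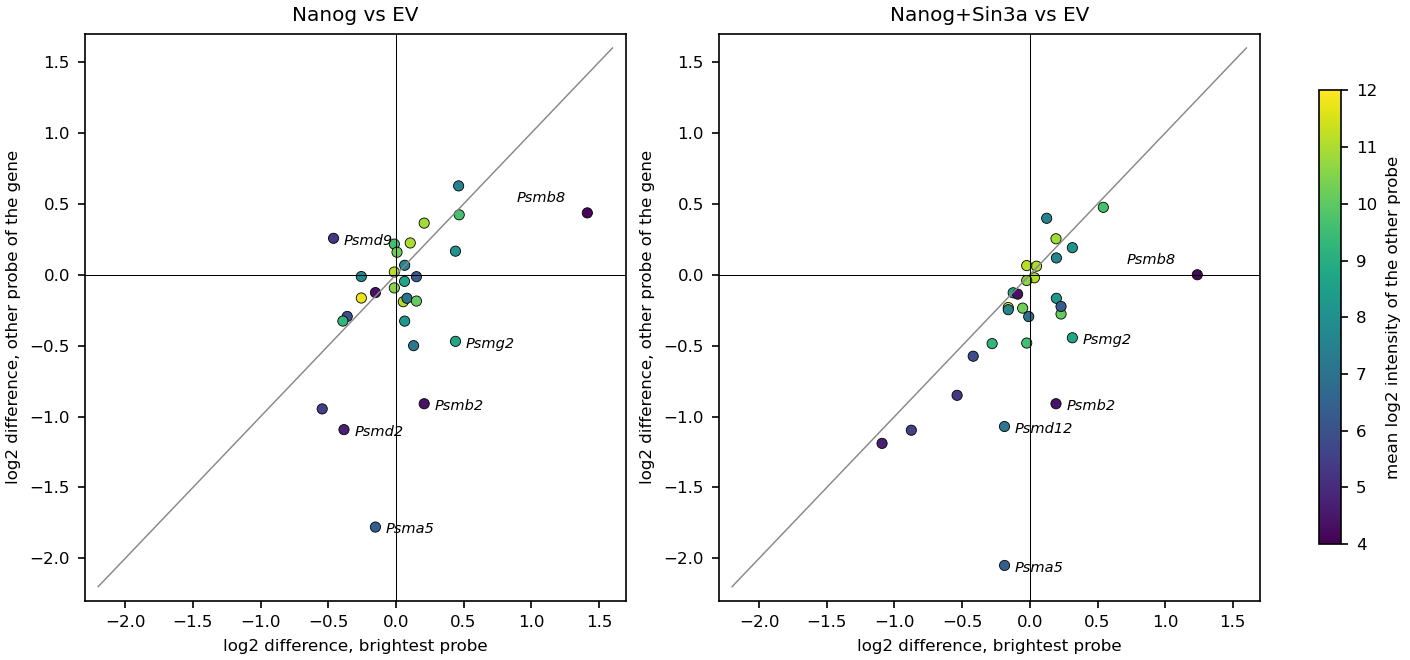
Log2 difference from EV of each further probe above the floor (vertical) against that of the gene's brightest probe (horizontal), for Nanog (left) and Nanog+Sin3a (right); colour is the further probe's mean log2 intensity and the line marks equality. Probes more than 0.7 from the line are named; the dimmer Psma5 probe lies lowest, at -1.78 and -2.05, while its brightest probe is at -0.15 and -0.19.

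Adding Sin3a to Nanog changed no member that passed the test (0 of 42, against 0.0155% of all features; 4 at an unadjusted p under 0.05, against 11%). The members with the smallest p were Psma2, at 0.26 (SE 0.09, limma adjusted p = 0.365), and Psma4, at -0.24 (SE 0.09, adjusted p = 0.403). Psmb8 differed by -0.18, Psmb10 by 0.08, Psme2 by 0.28 and Psmc6 by -0.23. The 95% interval for Psmb10 ran from -0.19 to 0.34 and that for Psme2 from -0.12 to 0.67. Of the 42 members 36 lay within 0.25, against 67.7% of all features.

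Sin3a alone left no bright member past the threshold (0 of 28, against 0.174% of all 2300 bright features; 0 at an unadjusted p under 0.05, against 7.83%). The differences ran from -0.29 for Psmd14 (adjusted p = 0.670) to 0.21 for Psmb2, and 26 of 28 were within 0.25, against 90.3%. Psmb10 differed by 0.19 (95% interval -0.05 to 0.43). Adding Nanog to Sin3a gave 0 of 28 past the threshold (against 11.6%, of which 5.61% rose and 5.96% fell), with 5 at an unadjusted p under 0.05 (against 29%): Psmb10 at 0.35 (SE 0.12, adjusted p = 0.0518), Psmg3 at 0.47, Psmd4 at 0.23, Psma2 at 0.21 and Psma5 at -0.24. Within 0.25 lay 26 of 28, against 70.5%. With array weights in the same fit 3 passed: Psmg3, Psmb10 and Psma5. The interaction, the Sin3a difference with Nanog minus that without it, passed for 0 of 28 (against 0.0435%; 0 unadjusted, against 6.52%), with the smallest adjusted p for Psmc2 (-0.25, adjusted p = 0.719) and 25 of 28 within 0.25 (against 80.3%). Psmb8, Psme1, Psme2 and Psmc6 were too dim to enter these comparisons.

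Genes of MHC class I presentation, the pathway that immunoproteasome peptides feed, were followed in a list of 13, of which 9 were tested. In Nanog vs EV 1 of 9 rose and 0 fell (1.44% of all features rose); in Nanog+Sin3a vs EV 3 of 9 rose and 0 fell (3.78% of all features rose). The list medians were 0.29 and 0.48, against 0.00 and 0.01 over all features. Tap1, at 30.1 and 16.6 in the Nanog+Sin3a arrays, was under the floor on all others and entered the test through those arrays alone. Tap2, which is in the count of 3, met the filter only through the arrays with Nanog. The second count and both medians are thus partly set by the filter and are no support. Irf1, the interferon regulatory factor known to drive Psmb8 and Psmb9, read 9.01 and 9.02 in the EV arrays, 8.99 and 8.84 in the Sin3a arrays, 10.00 and 9.92 in the Nanog arrays and 9.76 and 9.68 in the Nanog+Sin3a arrays. The arrays with Nanog lay above all others, and Irf1 rose by 0.95 (SE 0.08, 1.93-fold, limma adjusted p = 0.00546) and 0.71 (SE 0.08, 1.63-fold, adjusted p = 0.00850). It also rose in Nanog+Sin3a vs Sin3a, by 0.81 (SE 0.13, adjusted p = 0.000282).

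H2-D1, a class I heavy chain, read 8.07 and 8.31 in the EV arrays, 8.48 and 8.62 in the Nanog arrays and 8.90 and 8.96 in the Nanog+Sin3a arrays. It rose in Nanog+Sin3a vs EV by 0.74 (SE 0.12, adjusted p = 0.0197), and with its probes averaged the difference was 0.31 and did not pass (adjusted p = 0.261). Tap2, a subunit of the peptide transporter, had intensities of 43 and 33.3 in the Nanog+Sin3a arrays, 33.9 and 27.5 in the Nanog arrays, and 18.8 and -0.3 in the EV arrays. Only through the arrays with Nanog, where it is high, did Tap2 meet the filter of 2 arrays above the floor. Its call in Nanog+Sin3a vs EV is therefore no support, and only its intensities are described. The arrays with Nanog were above the EV arrays for both genes. B2m, the class I light chain, differed by 0.29 and 0.30 (adjusted p = 0.179 and 0.119), and H2-K1, another heavy chain, by 0.23 and 0.41 (adjusted p = 0.576 and 0.237). Nlrc5, a class I transactivator, was at the floor on all arrays.

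**Figure D5:**
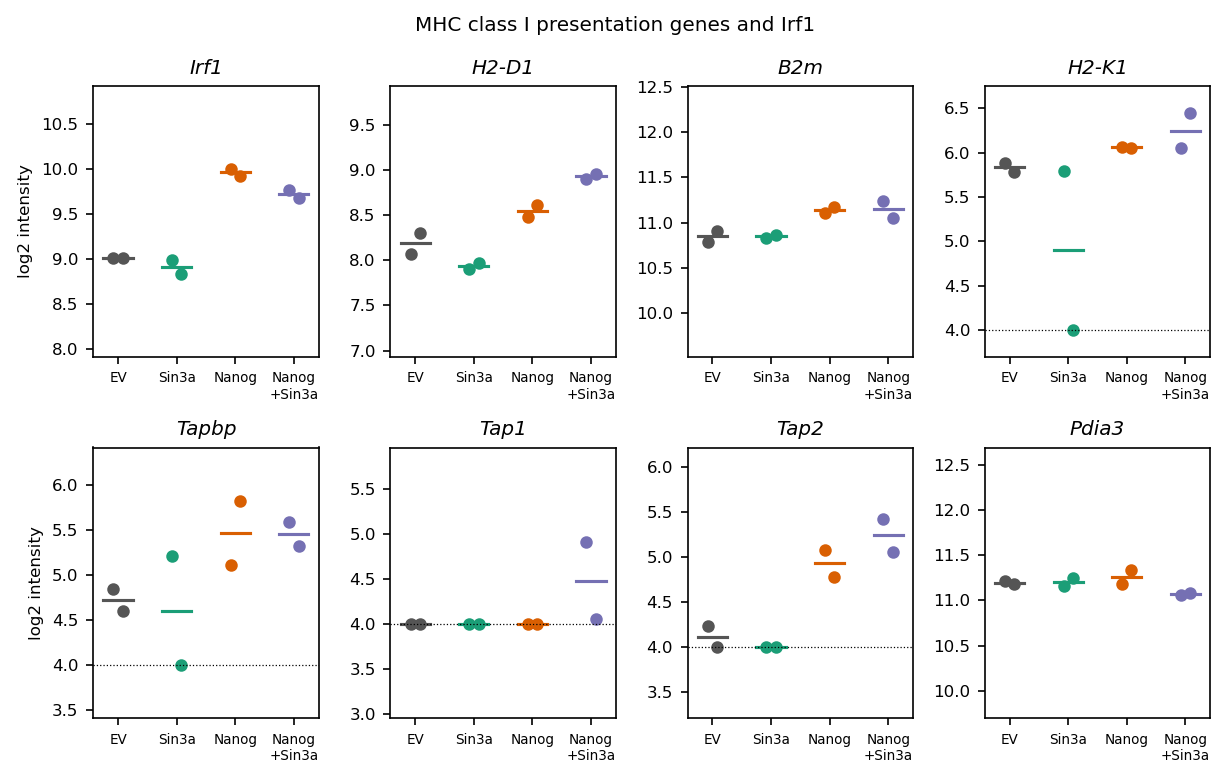
Log2 intensity of each of the 8 arrays (dots; bars are group means) for 8 genes of class I presentation, by group; the dotted line is the floor. Irf1 separates the 4 arrays with Nanog (9.68 to 10.00) from the 4 without (8.84 to 9.02), and H2-D1 is highest in the Nanog+Sin3a arrays. For Tap2 the Nanog and Nanog+Sin3a arrays overlap.

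Immune cells, which express these genes strongly, left little signal: of 6 markers 1 was above the floor on at least 2 arrays, Cd74 and Csf1r were at the floor on all 8, and the summed level was 96 to 105 in 7 arrays, where 96 is the lowest possible sum; it was 160.1 in the second Sin3a array. Of 6 fibroblast markers 3 were above the floor, and Col1a2 and Col3a1 were at the floor on all 8. The sum of the list was 298.2 to 310.1 in EV and in the first Sin3a array and 96 in the second Sin3a array. It was 498.4 to 594.6 in the arrays with Nanog, so it moved with the immunoproteasome genes. Its part in them was not tested. Of the 3 markers tested, 1 rose and another differed by -0.07 in Nanog vs EV, and 2 rose in Nanog+Sin3a vs EV. Of all features 1.44% and 3.78% rose. Of 4 endothelial markers 3 were above the floor, with sums of 83 to 90.9 in EV and in the first Sin3a array, 380.4 in the second Sin3a array and 108.8 to 155 in the arrays with Nanog. The part of this list was not tested either. Of the 3 endothelial markers tested, 0 passed in Nanog vs EV and 1 rose in Nanog+Sin3a vs EV. In bulk RNA, fewer cells of a type and less RNA per cell cannot be told apart. Of 7 neural stem cell markers with a probe 2 were above the floor on at least 2 arrays, Pax6, Fabp7 and Slc1a3 were at the floor on all 8, and the sum was 193.8 to 202 in EV and in the first Sin3a array, 487.3 in the second Sin3a array and 153.7 to 171.3 in the arrays with Nanog. Nes, the only one of them tested, differed by -0.51 with Nanog (adjusted p = 0.147) and fell by 0.78 with Nanog+Sin3a (adjusted p = 0.0355). Of 11 pluripotency markers, Nanog itself included, 8 were above the floor, Esrrb, Dppa3 and Utf1 were at the floor on all 8, and the sum was 1130.5 to 1535.3 without the Nanog vector and 1557.3 to 1982.9 with it. Part of that difference is the Nanog transgene itself, so the sums do not show that the other markers rose. Of the 8 tested, only Nanog passed, by 4.72 with Nanog and 4.17 with Nanog+Sin3a over EV arrays at the floor. It met the filter only through the arrays with its vector, so its calls are no support. The part of these 2 lists in the proteasome results was not tested.

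In the other lists of the pathway few genes passed, to be read against 2.69% of all features in Nanog vs EV and 7.45% in Nanog+Sin3a vs EV. In the list of proteasome transcription genes 0 of 12 passed in Nanog vs EV and 2 of 12 in Nanog+Sin3a vs EV. These were Nfya, a subunit of the CCAAT-binding factor, and Bach1, a repressor at antioxidant response elements. Nfya was higher than EV arrays that were at the floor, and Bach1 was at the floor in the Nanog+Sin3a arrays. No fold is given for either. Each call rests on a group at the floor, so the count of 2 is no support. Nfe2l1, the Nrf1 factor that restores proteasome genes when activity is low, differed by 0.05 and 0.02. Of 3 tested ubiquitin and E1 genes 1 passed, Uba6, an activating enzyme, which fell by 0.62 in Nanog+Sin3a vs EV (adjusted p = 0.0430).

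Of 11 tested shuttle and unfoldase genes 1 passed in each comparison against EV: Ubxn1, a cofactor of the Vcp unfoldase, fell in both. It read 11.26 and 11.16 in the EV arrays, 10.82 and 10.75 in the Nanog arrays and 10.54 and 10.56 in the Nanog+Sin3a arrays, and these groups did not overlap. Ubxn1 fell by 0.43 with Nanog (SE 0.08, adjusted p = 0.0495) and by 0.66 with Nanog+Sin3a (SE 0.08, adjusted p = 0.00887). It also fell in Nanog+Sin3a vs Sin3a, by 0.64 (SE 0.10, limma adjusted p = 0.000429). Among 8 tested proteasome-bound genes none passed against EV; in Nanog+Sin3a vs Sin3a 1 of 4 bright ones passed (11.6% of all bright features did), and Uchl5, a deubiquitinase of the cap, fell by 0.49 (adjusted p = 0.00994). Of 21 tested COP9 signalosome and eIF3 genes, complexes related to the lid, 1 passed against EV: Eif3h fell by 1.09 in Nanog+Sin3a vs EV (adjusted p = 0.0173). Of 14 bright ones in Nanog+Sin3a vs Sin3a, 1 rose and 1 fell (5.61% and 5.96% of all bright features did). Cops7a rose by 0.60 (limma adjusted p = 0.00347) and Eif3f fell by 0.37 (limma adjusted p = 0.0112).

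The calls against EV rest on 2 arrays a group. Leaving out either EV array left 0 of 12576 and 0 of 12578 features called in both comparisons against EV, members and companion genes included; leaving out either Nanog+Sin3a array took the members called, Psmb8 included, in Nanog+Sin3a vs EV from 4 to 0 and those in Nanog vs EV from 1 to 0, and leaving out the first Nanog array took both to 0 (the second, to 2 and 0). Over all 7 such fits the adjusted p ranged from 0.0344 to 0.289 for Psmb10, from 0.0313 to 0.240 for Psme2 and from 0.0341 to 0.289 for Psmc6 in Nanog+Sin3a vs EV, while each kept its sign.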

How the data were processed

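Total RNA of 8 pre-iPSC samples was read on Illumina bead arrays. Intensities were deposited by the authors as 1 table, and the submitters' processing notes name GenomeStudio; its settings and detection p-values are not given in the sources used here. The deposited intensities are linear and background-subtracted, with values from -24 to 14965.3 a nearly identical value distribution on each array, and 35.7% to 36.1% of the 45281 probes above an intensity of 16. Probes were named from the platform annotation: 34885 had 1 symbol, 18 several and 10378 none.

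Values under 16 were set to 16 before log2. Each comparison was fitted with limma 3.58.1 (R 4.3.3; lmFit, and eBayes with an intensity trend), with 1 coefficient per group and Benjamini-Hochberg adjustment over all features tested. Comparisons without the Sin3a group used 7 arrays and features above the floor on at least 2 of them (3 residual degrees of freedom); the others used 8 arrays and bright features (4). The scripts were tested on simulated data. The number of arrays limits the precision.

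The members and gene lists were chosen with earlier results of these data known. Named with values were members that passed, the member with the largest Nanog+Sin3a vs EV difference in each role, the catalytic subunits and their counterparts, the PA28 genes, members whose probes differed by over 1, and up to 4 companion genes that passed per list; other members, such as Psma2, Psmd14 and Psmg2, were named after their values were seen. Alternatives covered arrays, weights, normalization, floor, filter, probes, variance prior and replicate number; the same refits of companion genes were added after seeing the data. Sequences are RefSeq's.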

Additional observations from a re-analysis of the deposited data

How the results depend on the processing

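Numbers of members past the threshold depended on the processing. The count of 1 in Nanog vs EV is Psmb8 alone, and the 4 in Nanog+Sin3a vs EV include it. Its calls are no support here either, in the main fits or in any refit. Among refits of members with an unadjusted p under 0.05 the sign held in each. Many of these refits kept the same probe and group means, so the sign could not change there. Further probes of a gene, as for Psmg2 and Psmd9 in Nanog vs EV, could differ in sign. Leaving out single arrays, 161 stayed on the same side of the threshold and 28 were lost. Under the other alternatives 320 stayed, 22 passed newly and 19 were lost. In Nanog vs EV the count of 1 became 0 with all 8 arrays and all features or with no filter on low values, 2 with bright features of 8 arrays, with a floor of 32 or with all probes as separate features, and 4 with array weights or with features above the floor in every array; leaving out single arrays gave 0 to 1. In Nanog+Sin3a vs EV the count of 4 became 0 with all 8 arrays and all features or with no filter, and 7 with array weights, with features above the floor in every array or with all probes separate; leaving out single arrays gave 0 to 4. In Nanog+Sin3a vs Sin3a the count of 0 became 3 with array weights, 1 with all probes separate and 1 with the mean of the probes; leaving out single arrays gave 0 to 3. The other 3 comparisons gave 0 under every alternative run.

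The counts over all features moved with them: in Nanog vs EV 347 became 0 with all 8 arrays, 834 with array weights, 47 with no filter, 786 with features above the floor in every array and 573 with a floor of 32; in Nanog+Sin3a vs EV 960 became 35, 1440, 125, 1499 and 1287. Taking all features on 8 arrays moved the median of all features by 0.12 in Nanog+Sin3a vs Sin3a and 0.13 in the interaction.

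The members' medians were small and some changed sign. In Nanog vs EV the median of 0.06 was 0.0112 with no filter or all probes, -0.0051 with the mean of the probes, and -0.0221 to 0.0657 leaving out single arrays. In Nanog+Sin3a vs EV (-0.03) it was -0.0903 and -0.0827 with all or averaged probes, and -0.0789 to 0.0198 leaving out arrays. In Nanog+Sin3a vs Nanog (-0.06) it was -0.0188 with bright features and -0.0995 to 0.0032 leaving out arrays. Averaged probes gave 0.0541 in Nanog+Sin3a vs Sin3a and -0.0224 in Sin3a vs EV, and leaving out arrays gave -0.0231 to 0.0373 and 0.014 to 0.0449 there, and -0.1046 to -0.0311 in the interaction. The cause of these shifts was not tested.

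Replicate numbers did not pair the arrays: deviations of same-numbered arrays correlated at -0.0605, -0.0243 and -0.0507. With the replicate number as a block, 1 member passed in Nanog vs EV and 3 in Nanog+Sin3a vs EV (Psmb10 at adjusted p = 0.0653), 0 in the other comparisons, and 198 and 530 of all features in the first 2. Psmb8 stayed among the members tested in the first 2, and a call of it is no support.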
